A study of Mus musculus with 27 samples.

Results

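The 34 genes described here encode the proteins that bring pyruvate into the mitochondrion, oxidise it to acetyl-CoA and run the tricarboxylic acid (TCA) cycle, together with close carriers and glutamate enzymes. They were chosen by symbol from a list made for their function, and 34 of 34 were found among the 55483 genes of the count table. Their mRNAs were followed in RAW264.7 cells, a macrophage line from a virus-induced mouse tumour, which is 1 transformed line and stands in only in part for macrophages of a tissue. The cells were kept for 6 h in DMSO (the solvent control), with 1 µg/ml LPS and DMSO (called LPS here), or with the same dose of LPS and 10 µM TM7nox. LPS is a bacterial cell-wall lipopolysaccharide that activates macrophages. TM7nox is one of the tanshinone mimics, compounds made to interfere with RNA binding by HuR. HuR, the product of Elavl1, is an RNA-binding protein that favours U-rich stretches, often in 3′ UTRs. Each treatment had 4 libraries of total RNA, 4 of RNA recovered with an anti-HuR antibody (ribonucleoprotein immunoprecipitation, RIP) and 1 of RNA recovered with control IgG. No group received TM7nox without LPS among the samples used here.

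Pyruvate enters mitochondria through the carrier formed by Mpc1 and Mpc2. The pyruvate dehydrogenase complex turns it into acetyl-CoA, under the control of kinases that switch the complex off and phosphatases that switch it on. Citrate synthase joins acetyl-CoA to oxaloacetate, and the cycle returns oxaloacetate through isocitrate, 2-oxoglutarate, succinyl-CoA, succinate, fumarate and malate. In macrophages stimulated with LPS the cycle is known to be remodelled, with citrate drawn off for lipids and itaconate and with a build-up of succinate.

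Since HuR favours U-rich RNA, the 30 bases richest in T are shown from the 3′ UTR of the canonical transcript for the 4 genes with the highest and the 4 with the lowest recovery with anti-HuR in DMSO. The sequences were read from GRCm39 and run 5′ to 3′ on the strand of the gene, and capitals mark runs of 3 or more T. The first 4 are Idh1, Suclg2, Pdp1 and Sdhc, which stood highest, and the last 4 are Mdh1, Idh3g, Fh1 and Suclg1, which stood lowest.
Idh1, chr1:65198548-65198577, minus strand: aggTTTacgtaTTTTTTTTTTTTTTTTagt
Suclg2, chr6:95450346-95450375, minus strand: ttcTTTcTTTcTTTcTTTcTTTcTTTcTTT
Pdp1, chr4:11958949-11958978, minus strand: TTTTTgTTTTTTgggTTTTTTTTTTTTTTT
Sdhc, chr1:170955323-170955352, minus strand: aTTTTTacTTTTTTTTTTTgatggcttctt
Mdh1, chr11:21507204-21507233, minus strand: actctgTTTctacTTTataTTTagtatctt
Idh3g, chrX:72822634-72822663, minus strand: TTTTgctcagcttgtctgtaggactctctt
Fh1, chr1:175425799-175425828, minus strand: TTTTcTTTatatagTTTTTgTTTgttgTTT
Suclg1, chr6:73253812-73253841, plus strand: gTTTTagaatgtcctaaattgagctaTTTT
The richest window held 21 T in Idh1, 23 in Suclg2, 26 in Pdp1 and 21 in Sdhc. It held 17 T in Mdh1, 14 in Idh3g, 22 in Fh1 and 14 in Suclg1, and the median over the coding genes tested was 19. The window of Fh1 was richer than those of Idh1 and Sdhc and poorer than those of Suclg2 and Pdp1. The 3′ UTRs differ in length, from 135 bases in Idh3g and 203 in Suclg1 to 3700 in Fh1, and a longer one has more windows to choose from.

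The RNA libraries held 2728534 to 28285856 counts, the RIP libraries 19816312 to 41449233 and the IgG libraries 8873091 to 24513902. RNA DMSO replicate 1 was the shallowest, followed in RNA by LPS+TM7nox replicate 1 at 16258731. Mitochondrially encoded genes took 12.1 to 22.4% of counts in RNA and 0.559 to 1.86% in RIP, while Actb took 0.530 to 1.29% in RNA and 5.78 to 18.3% in RIP. The 9 macrophage markers summed to between 3331 and 6886 CPM (counts scaled to library size, here on 1 scale over the 27 libraries) in RNA, although Mertk had a median of 0.537 CPM. The 14 markers of T cells, B cells, neutrophils, fibroblasts and epithelium summed to at most 3.68 CPM, and Ly6g, Epcam and Krt8 had no count in RNA. That sum moved with treatment, from 0 to 0.354 CPM in DMSO to 1.59 to 3.68 CPM in LPS and 0.425 to 0.729 CPM in LPS+TM7nox, and its part in the results was not tested. The strand setting of the counting is not given in the sources used here, so reads of Dld and Lamb1, Idh2 and Zfp710, Idh3a and Acsbg1, Idh3g and both Srpk3 and Ssr4, Sdhd and Timm8b, Fh1 and Kmo, or Mdh1 and Wdpcp, which overlap on opposite strands, may not have been told apart. In bulk libraries fewer cells expressing a gene and less RNA per cell cannot be told apart. The labels number the replicates without saying whether they came from separate cultures, so p-values measure only the spread between these samples.

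Per length of the canonical transcript, the malate dehydrogenase Mdh2 had the highest level of the 34 in DMSO cells, at 176 ± 19.9 CPM per kb (SD, n = 4). It was followed by Idh2 at 61.1 ± 8.65, Cs at 58.6 ± 6.19, Glud1 at 53.6 ± 3.55 and Sdhd at 51.8 ± 1.13 CPM per kb, and each of these 4 differed from its neighbour in that order by less than the larger SD of the pair. The lowest of the 34 were the phosphatase Pdp1 at 1.32 ± 0.122, the enzyme pyruvate carboxylase (Pcx) at 1.15 ± 0.280 and the kinase Pdk2 at 0.395 ± 0.0471 CPM per kb. Related genes outside the 34 were not all this low. In RNA from DMSO cells the kinases Pdk1, Pdk3 and Pdk4 had means of 30.5, 28.1 and 0.053 CPM, beside 0.910 CPM for Pdk2. The phosphatase Pdp2 had a mean of 19.85 CPM, beside 6.175 CPM for Pdp1. Pdk2 rested on 0 to 32 counts per library. Mpc1 had 2259 counts over all libraries beside 1753 for the pseudogene Mpc1-ps, so reads may have been split between them and values of Mpc1 are uncertain. The whole set took 0.378 ± 0.0222% of the counts in RNA from DMSO cells (SD, n = 4), 0.268 ± 0.0111% (SD, n = 4) with LPS and 0.247 ± 0.0179% (SD, n = 4) with LPS+TM7nox. These shares did not overlap between DMSO and the LPS groups. A share depends on how much of a library other RNAs take: on the common TMM scale the members summed to 2480 ± 201 CPM in DMSO, 2196 ± 87.5 CPM with LPS and 2073 ± 70.7 CPM with LPS+TM7nox (SD, n = 4 in each), and there the DMSO and LPS ranges overlapped.

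LPS lowered 10 of the 34 mRNAs in total RNA and raised none, at an FDR under 0.05 (the Benjamini-Hochberg adjusted p of edgeR's quasi-likelihood test over all genes tested). Of the 12369 genes tested, 42% were called in that comparison, 20.2% higher and 21.7% lower. The members' median log2 change was -0.20, beside -0.04 over all genes, and 30 of 34 were below 0. Among the members called, the falls were largest for Idh1, the phosphatase Pdp1, Got1 and Idh2. Pdk2 (-1.23, FDR 0.156) and Mpc1 (-0.66, FDR 0.102) had values of like size and were not called. Subunits of the 2-oxoglutarate dehydrogenase complex and of succinyl-CoA ligase, from Ogdh to Sucla2, had 0 of 5 called, with log2 changes between -0.23 and -0.04.

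Idh1, on chromosome 1 (65196781 to 65225721), makes NADPH and 2-oxoglutarate from isocitrate in the cytosol. Its RNA stood at 85.2, 116, 142 and 168 CPM in DMSO replicates 1 to 4, at 40.7, 57.0, 53.8 and 58.8 CPM in LPS and at 67.8, 70.3, 52.3 and 47.7 CPM in LPS+TM7nox. Each library with LPS lay below each DMSO library. The log2 change with LPS was -1.31 (SE 0.192, FDR 8.19e-05), a 2.48-fold lower level, and that of LPS+TM7nox against DMSO was -1.13 (SE 0.191, FDR 0.000231). Between LPS+TM7nox and LPS the difference was 0.18 (SE 0.189, FDR 0.603).

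Its mitochondrial counterpart Idh2, on chromosome 7 (79741431 to 79765535), stood at 94.1, 93.6, 117 and 123 CPM in DMSO, at 67.9, 66.5, 82.1 and 90.0 CPM in LPS and at 63.4, 64.1, 80.7 and 80.2 CPM in LPS+TM7nox. All 8 LPS-treated libraries lay below the 4 DMSO libraries. Idh2 fell by 0.51 on the log2 scale with LPS (SE 0.137, FDR 0.00761) and was 0.60 below DMSO, as a log2 difference of -0.60, with LPS+TM7nox (SE 0.137, FDR 0.00245).

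Idh3a, on chromosome 9 (54493575 to 54514730), is the catalytic subunit of the NAD-linked isocitrate dehydrogenase of the cycle. It fell step by step over the 3 treatments, from 111, 145, 117 and 126 CPM in DMSO to 100, 107, 86.5 and 91.7 CPM in LPS and 81.7, 74.0, 65.0 and 61.5 CPM in LPS+TM7nox. No library of 1 treatment overlapped another treatment's range. The log2 changes were -0.41 with LPS (SE 0.122, FDR 0.0154), -0.45 from LPS to LPS+TM7nox (SE 0.122, FDR 0.0250) and -0.85 from DMSO to LPS+TM7nox (SE 0.123, FDR 5.56e-05). The other subunits of that enzyme, Idh3b and Idh3g, were not called in any RNA comparison, with log2 changes from -0.20 to 0.15. Citrate synthase (Cs) and the cytosolic aconitase Aco1 were not called either.

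Fh1 and Sdhd, from the span between succinate and malate, followed the same order as Idh3a. Fumarate hydratase, encoded by Fh1 on chromosome 1 (175425290 to 175453205), stood at 60.4, 66.5, 73.0 and 73.2 CPM in DMSO, at 48.0, 56.1, 59.5 and 58.9 CPM in LPS and at 38.4, 47.0, 41.7 and 39.1 CPM in LPS+TM7nox. Sdhd, a membrane anchor of succinate dehydrogenase on chromosome 9 (50507642 to 50515195), stood at 66.8, 65.0, 65.7 and 63.4 CPM, then at 46.9, 54.0, 47.6 and 53.9 CPM and then at 38.4, 43.6, 39.9 and 39.3 CPM. For both genes the 3 treatments did not overlap. Fh1 changed by a log2 of -0.33 with LPS (SE 0.109, FDR 0.0247), of -0.42 from LPS to LPS+TM7nox (SE 0.109, FDR 0.0199) and of -0.75 over both steps (SE 0.109, FDR 6.51e-05). The same differences for Sdhd were -0.40 (SE 0.0977, FDR 0.00444), -0.32 (SE 0.0975, FDR 0.0399) and -0.72 (SE 0.0982, FDR 3.36e-05). The other subunits of succinate dehydrogenase moved less: the flavoprotein Sdha was lower with LPS+TM7nox than in DMSO, by a log2 of -0.37 (FDR 0.00622). Sdhb was called in RNA only under some alternatives for LPS+TM7nox against DMSO, and Sdhc under none. The cytosolic malate dehydrogenase Mdh1, on chromosome 11 (21506423 to 21522367), stood at 83.7 to 115 CPM in DMSO, at 72.2 to 91.7 CPM in LPS, which overlaps DMSO, and at 67.1 to 77.3 CPM in LPS+TM7nox. Mdh1 changed by -0.36 with LPS (FDR 0.0238) and by -0.55 with LPS+TM7nox (FDR 0.00152), while the mitochondrial Mdh2 was not called, at 0.12 and -0.00.

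**Figure D1:**
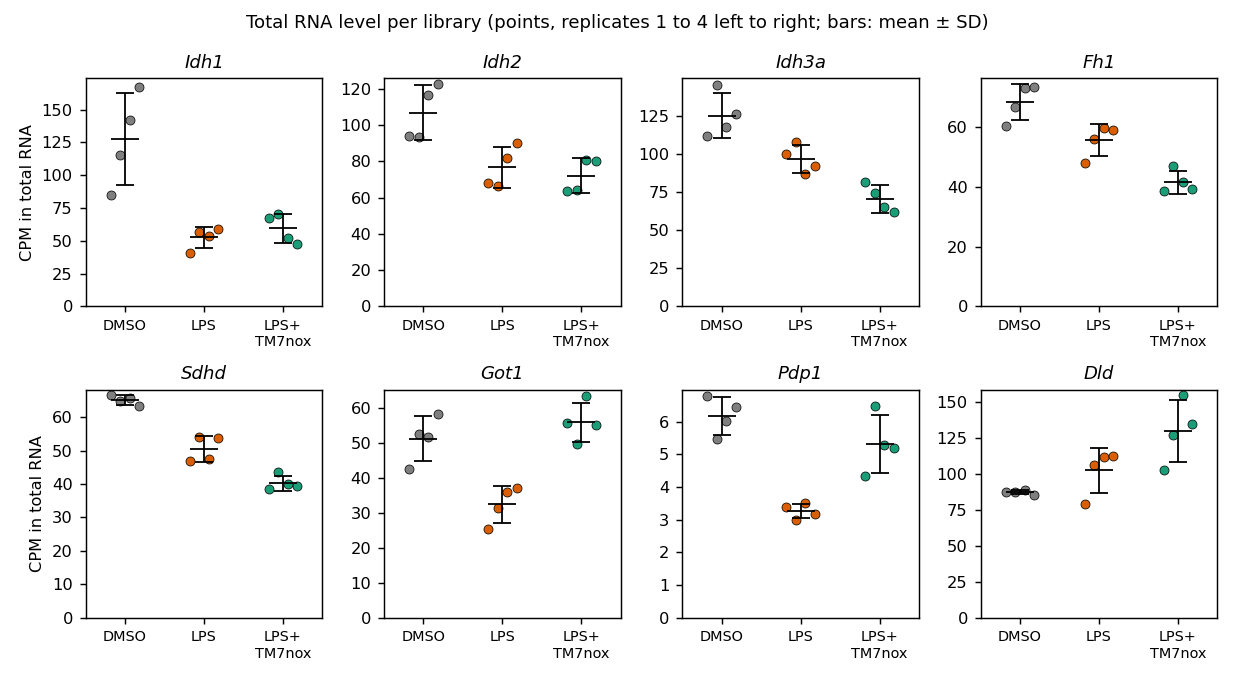
Level in total RNA (CPM, linear axes from 0) of 8 genes in the 4 libraries of each treatment, with points for replicates 1 to 4 from left to right and bars for the mean ± SD. Idh3a, Fh1 and Sdhd step down from DMSO to LPS to LPS+TM7nox, whereas Got1 and Pdp1 are low in LPS and high in both other groups.

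Got1 and Pdp1 had another pattern, with a fall with LPS and a rise from LPS to LPS+TM7nox. Got1, on chromosome 19 (43488188 to 43513674), encodes the cytosolic aspartate aminotransferase of the malate-aspartate shuttle. It stood at 42.4, 52.4, 51.7 and 58.1 CPM in DMSO, at 25.4, 31.3, 35.8 and 36.9 CPM in LPS and at 55.5, 49.6, 63.2 and 55 CPM in LPS+TM7nox. The LPS libraries lay below all others, and the DMSO and LPS+TM7nox ranges overlapped. The log2 change was -0.70 with LPS (SE 0.131, FDR 0.000649) and 0.79 from LPS to LPS+TM7nox (SE 0.130, FDR 0.00111), a 1.73-fold rise, and LPS+TM7nox differed from DMSO by 0.09 (SE 0.130, FDR 0.579). These comparisons share the LPS or DMSO libraries and are not independent of each other.

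Pdp1, on chromosome 4 (11957712 to 11966468), encodes the phosphatase that reactivates pyruvate dehydrogenase. Its RNA stood at 6.78, 5.46, 6.02 and 6.44 CPM in DMSO, at 3.38, 3.0, 3.50 and 3.18 CPM in LPS and at 4.32, 6.46, 5.29 and 5.18 CPM in LPS+TM7nox. Again the LPS libraries lay below all others. Pdp1 changed by -0.94 with LPS (SE 0.188, FDR 0.00105), by 0.71 from LPS to LPS+TM7nox (SE 0.185, FDR 0.0204) and by -0.23 over both steps (SE 0.185, FDR 0.327). Pcx was not called, at -0.35 and 0.68 on the log2 scale for the same steps, although its 4 LPS+TM7nox libraries lay above its 4 LPS libraries.

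Within the pyruvate dehydrogenase complex the subunits did not move together. Dld, on chromosome 12 (31379323 to 31401452), encodes the dihydrolipoyl dehydrogenase shared with the 2-oxoglutarate complex. It stood at 87.1, 87.5, 89.2 and 85.4 CPM in DMSO, at 79.1, 106, 112 and 112 CPM in LPS and at 103, 127, 155 and 135 CPM in LPS+TM7nox. Only the DMSO and LPS+TM7nox ranges were apart, with a log2 difference of 0.54 (SE 0.136, FDR 0.00445), and Dld was the 1 member called higher there. The core-associated subunit Pdhx stood at 29.0 to 35.1 CPM in DMSO, at 24.2 to 26.7 CPM in LPS and at 29.5 to 31.3 CPM in LPS+TM7nox, so that LPS lay below both other groups. It fell by 0.29 with LPS (FDR 0.0324), and its difference from LPS to LPS+TM7nox was 0.24 (FDR 0.137). In the same complex, the E1 subunit Pdha1 was lower with LPS+TM7nox than in DMSO by a log2 of -0.36 (FDR 0.0355), and Pdhb and Dlat were called in RNA only under some alternatives. The carrier subunits Mpc1 and Mpc2 were called in RNA only without certain libraries or, for Mpc2, in replicates 3 and 4 alone.

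Among the carriers and glutamate enzymes, glutamate dehydrogenase (Glud1), which feeds 2-oxoglutarate into the cycle, fell by 0.43 with LPS (FDR 0.0396) and stood at a log2 of -0.61 against DMSO with LPS+TM7nox (FDR 0.00509). The oxoglutarate carrier Slc25a11 stood at -0.44 in that comparison (FDR 0.0156). The citrate carrier Slc25a1 and the mitochondrial aminotransferase Got2 were called in RNA only with the replicate block or without certain libraries, or in replicates 3 and 4 alone.

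From LPS to LPS+TM7nox, 2 members rose (Got1, Pdp1) and 3 fell (Idh3a, Fh1, Sdhd) of 34, where 13.8% of all genes were called, 7.37% higher and 6.4% lower. Against DMSO, LPS+TM7nox had 1 member higher (Dld) and 12 lower of 34, where 47.3% of all genes were called, 23.7% higher and 23.6% lower. The members' median log2 difference was -0.11 in the first of these comparisons and -0.27 in the second, beside -0.00 and -0.01 over all genes. With the replicate block, 10 members were called from LPS to LPS+TM7nox, adding Dld, Pdhb and Pcx as higher and Ogdh and Suclg2 as lower, where 24.99% of all genes were called. Against DMSO the block called 20 members, adding Pdhb (0.28, FDR 0.0130) as higher and Dlat, Got2 (-0.28, FDR 0.0107), Pdk2, Sdhb, Slc25a1 (-0.33, FDR 0.0427) and Suclg1 as lower, where 58.0% of all genes were called. DESeq2 called 8 members from LPS to LPS+TM7nox, with Ogdh, Suclg2 and Pcx added, where it called 18.5% of all genes.

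**Figure D2:**
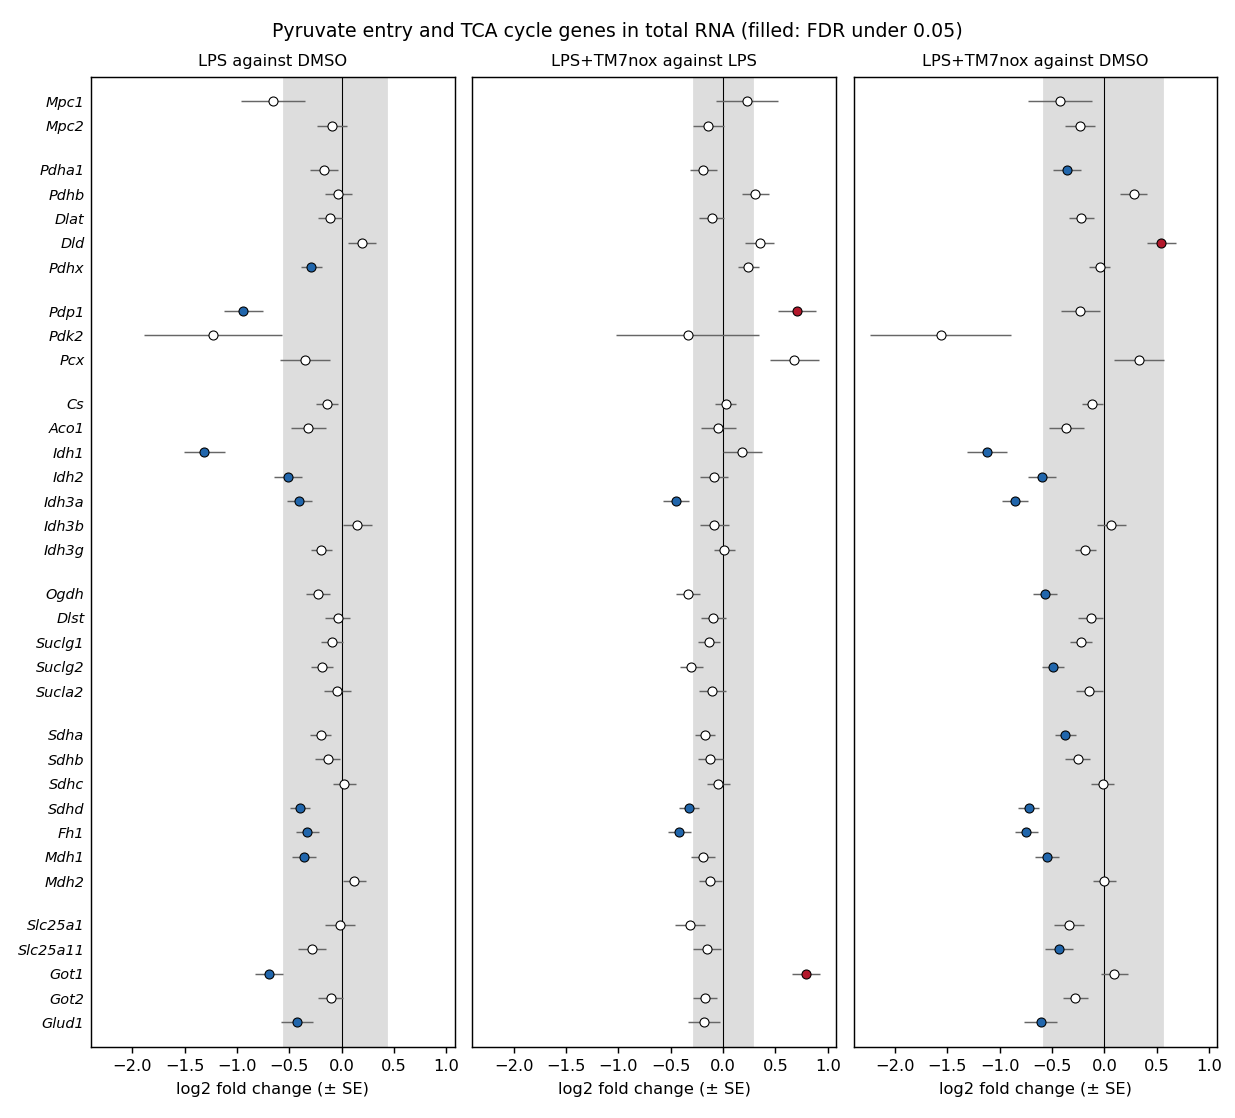
Log2 fold change ± SE in total RNA for the 34 genes in 3 comparisons, ordered by role from pyruvate import to carriers and glutamate enzymes, with filled points at an FDR under 0.05 and grey bands from the lower to the upper quartile of all genes tested. Most points lie left of 0, with Idh1 at -1.31 in LPS against DMSO, and Got1 and Pdp1 are the filled points to the right in LPS+TM7nox against LPS.

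How many members were called in RNA depended on which libraries were fitted. Replicates 1 and 2 alone called 1 member with LPS (Idh1), 0 from LPS to LPS+TM7nox and 1 (Idh3a) for LPS+TM7nox against DMSO, and replicates 3 and 4 alone called 14, 12 and 20. All genes showed a like gap: the first pair called 13.4%, 1.35% and 18.01% of them, the second 58.7%, 27.9% and 63.3%. For Idh1, Got1 and Sdhd, values kept their direction: Idh1 stood at -1.03 and -1.45 with LPS in the 2 pairs of replicates, Got1 at -0.73 and -0.59, and Sdhd at -0.38 and -0.34. Values of other members moved more. With 1 library left out, Pdk2 ranged from -2.28 to -0.94 with LPS and Mpc1 from -0.86 to -0.32. With LPS, Idh1, Pdp1, Got1, Idh2 and Sdhd stayed called without any 1 library. Glud1 was lost without any 1 of the 4 DMSO libraries or without LPS replicate 3 or 4 (FDR 0.0532 to 0.118), and Pdhx without DMSO replicate 2 or 4, LPS replicate 2, 3 or 4 or LPS+TM7nox replicate 1 (FDR 0.0511 to 0.107). Fh1 and Mdh1 were lost without DMSO replicate 3 or 4, LPS replicate 1 or 2 or LPS+TM7nox replicate 1 (FDR 0.0523 to 0.0852), and Idh3a without DMSO replicate 2 or LPS replicate 3 or 4 (FDR 0.0524 to 0.0582). Without DMSO replicate 4, 6 members were called with LPS. Without DMSO replicate 1, the shallowest library, Aco1 (FDR 0.00894) and Ogdh (FDR 0.0330) were added with LPS. Mpc1 was added without DMSO replicate 2 (FDR 0.0348) and Pdk2 without LPS replicate 1 (FDR 0.00646). Scaling with DESeq2's size factors lost Fh1 (FDR 0.0528), Glud1 (FDR 0.0637) and Pdhx (FDR 0.0742), and TMM without mitochondrially encoded genes and Actb lost the same genes. With the replicate block 13 members were called with LPS, the added ones being Pdk2, Sdha and Slc25a11 as lower, where 52.4% of all genes were called.

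Got1 was the member called from LPS to LPS+TM7nox that stayed called without any 1 library. The number called was 2 without LPS replicate 2, 3 without LPS replicate 3, 2 without LPS replicate 4, 1 without LPS+TM7nox replicate 3 and 2 without LPS+TM7nox replicate 4. Idh3a was lost without LPS replicate 1 or 2 or LPS+TM7nox replicate 3 or 4 (FDR 0.0614 to 0.0886), and Fh1 without replicate 3 or 4 of either treatment (FDR 0.0547 to 0.0703). Pdp1 was lost without LPS replicate 2 or 4 or LPS+TM7nox replicate 2 or 3 (FDR 0.0521 to 0.0671). Sdhd was lost without any 1 of 9 libraries, which were DMSO replicates 2, 3 and 4, LPS replicates 2, 3 and 4 and LPS+TM7nox replicates 1, 3 and 4 (FDR 0.0524 to 0.113). Dld was added without LPS+TM7nox replicate 1 (FDR 0.0390) and Ogdh without DMSO replicate 1 (FDR 0.0302). With no filter on low counts the adjustment ran over 30529 genes in place of 12369, and Got1 was the 1 member called. Against DMSO, Pdha1 was lost without any 1 of 6 libraries (FDR 0.0505 to 0.143) and Slc25a11 without LPS+TM7nox replicate 3 or 4 (FDR 0.0555 and 0.0571). The Pdha1 libraries were DMSO replicates 3 and 4, LPS replicate 4 and LPS+TM7nox replicates 1, 2 and 4. Leaving out DMSO replicate 1 there added Aco1, Dlat, Mpc2, Sdhb, Slc25a1 and Suclg1 (FDR 0.00454 to 0.0486). Got2 was added without DMSO replicate 2 or LPS+TM7nox replicate 1, Pdhb without replicate 1 of LPS or LPS+TM7nox, and Pdk2 without LPS replicate 1 or LPS+TM7nox replicate 2 (FDR 0.0218 to 0.0488).

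In the RNA recovered with anti-HuR, most of the 34 mRNAs were scarce. RIP over RNA in DMSO, a log2 difference relative to the typical gene, had a median of -1.57 over the members and 0.04 over all genes. Of the 34 members 29 were called lower and 3 higher, where 70.4% of the 14311 genes tested were called, 37% higher and 33.4% lower. The counts were 28 lower and 3 higher in LPS, where 63.7% of all genes were called, 32.9% higher and 30.8% lower. They were 27 lower and 3 higher in LPS+TM7nox, where 69.9% were called, 35.2% higher and 34.8% lower. The 3 members called higher were Idh1, Suclg2 and Pdp1 in each treatment. Sdhc was close to 0.

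Recovery with anti-HuR was low replicate by replicate. The members' median log2 difference between the RIP and RNA libraries of the same number was -1.46, -1.81, -1.69 and -1.85 in DMSO, -1.31, -1.49, -1.04 and -1.02 in LPS and -1.25, -1.43, -1.01 and -1.44 in LPS+TM7nox. The IgG library against the RNA library of replicate 3 gave 0.01 in DMSO, 0.21 in LPS and 0.17 in LPS+TM7nox. Members were thus about as frequent in IgG as in total RNA, and scarcer in RIP than in either. As a share of all counts they took 0.0947 ± 0.0108% in RIP from DMSO cells (SD, n = 4) and 0.487% in the IgG library of that treatment. Since shares of a library sum to a fixed total, the scarcity of these mRNAs in RIP is relative to the mRNAs that took more of it.

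**Figure D3:**
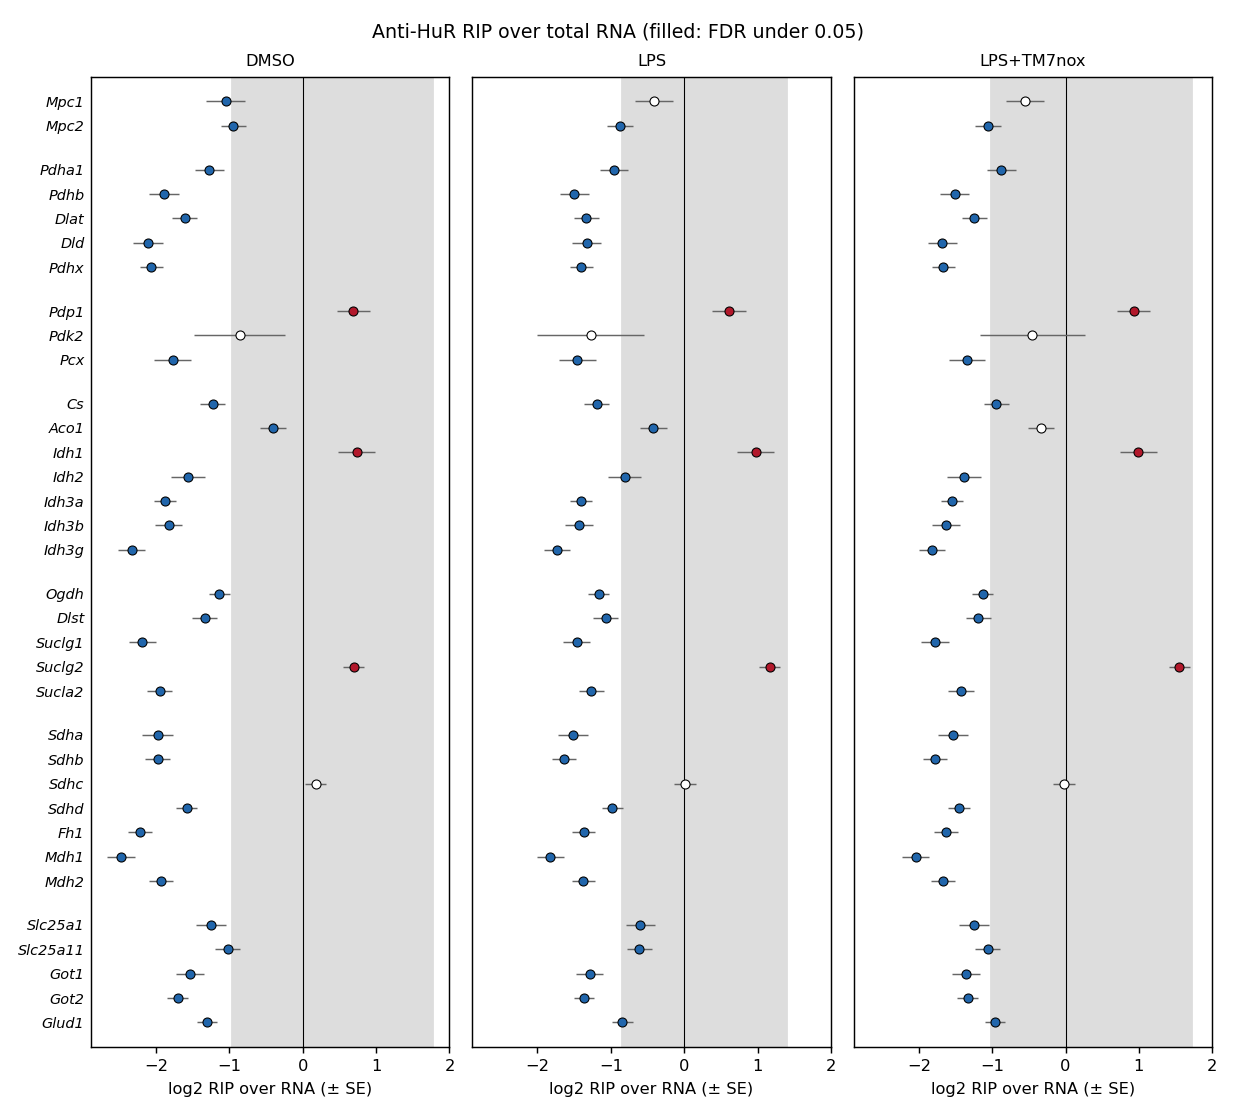
Log2 RIP over RNA ± SE for the 34 genes in DMSO, LPS and LPS+TM7nox, with filled points at an FDR under 0.05 and grey bands from the lower to the upper quartile of all genes tested. Idh1, Suclg2 and Pdp1 lie to the right of 0 in each panel, Sdhc at 0, and most others left of the grey band, down to Mdh1 at -2.48 in DMSO.

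Among the steps from pyruvate to acetyl-CoA, all 5 subunits of the pyruvate dehydrogenase complex were called lower in RIP over RNA in DMSO. Their values ran from -1.27 for Pdha1 to -2.10 for Dld, with Pdhx at -2.06. Dld stood at 17.9, 17.0, 24.2 and 16 CPM in the DMSO RIP libraries, beside the 85.4 to 89.2 CPM in RNA. Its phosphatase Pdp1 was called higher, as was Pdp2 (2.06, FDR 3.44e-09), another phosphatase of the complex that is not among the 34. Pdp1 stood at 7.89, 8.6, 12.1 and 8.04 CPM in the DMSO RIP libraries, above its 5.46 to 6.78 CPM in RNA, with a log2 difference of 0.69 (SE 0.225, FDR 0.00879). In IgG Pdp1 stood at 6.39, 5.69 and 10.1 CPM in DMSO, LPS and LPS+TM7nox.

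Among the isocitrate dehydrogenases, Idh1 alone was called higher. The cytosolic Idh1 stood at 127, 172, 286 and 214 CPM in the DMSO RIP libraries, with a RIP over RNA of 0.74 (SE 0.252, FDR 0.0118). RIP and RNA ranges overlapped for Idh1 in DMSO, while the RIP library was the higher one in 4 of 4 same-numbered pairs. The mitochondrial forms were called lower: Idh2 stood at 42.9, 23.8, 35.8 and 32.0 CPM in the DMSO RIP libraries (log2 -1.56), Idh3a at 31.7, 31.9, 34.2 and 28.0 CPM (-1.88) and Idh3b at -1.83. Idh3g, on the X chromosome (72820644 to 72830719), encodes a regulatory subunit. It stood at 49.4, 50.6, 54.1 and 51.0 CPM in RNA and at 9.89, 8.01, 9.93 and 9.85 CPM in RIP from DMSO cells, a log2 difference of -2.33 (SE 0.179, FDR 2e-11). Cs stood at -1.23 and Aco1 at -0.41 (FDR 0.0476).

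In succinyl-CoA ligase, 1 subunit was called higher and 2 were called lower. Its alpha subunit Suclg1, on chromosome 6 (73225365 to 73253894), pairs with either of 2 beta subunits, Suclg2 for the GTP-forming enzyme and Sucla2 for the ATP-forming one. Suclg2, on chromosome 6 (95433231 to 95695866), stood at 34.1, 40.3, 41.1 and 41.4 CPM in RNA and at 60.6, 50.1, 68.2 and 58.1 CPM in RIP from DMSO cells. The RIP range lay above the RNA range, with a log2 difference of 0.70 (SE 0.144, FDR 0.000133). Suclg1 stood at 55.8, 70.8, 73.0 and 73.8 CPM in RNA and at 13.7, 11, 16.1 and 15.3 CPM in RIP (-2.19, SE 0.189, FDR 1.81e-10). Sucla2 stood at 39.6 to 50.9 CPM in RNA, a range that overlaps that of Suclg2, and at 8.57 to 12.6 CPM in RIP (-1.95, FDR 4.51e-10). The difference between the beta subunits was not tested itself, and their RIP over RNA values in the 4 pairs were 0.31 to 0.83 for Suclg2 and -2.20 to -1.76 for Sucla2. Ogdh and Dlst, of the 2-oxoglutarate complex, stood at -1.14 and -1.33.

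In succinate dehydrogenase, 3 subunits were called lower and Sdhc was not called, and the difference between subunits was not tested. Sdhc, a membrane anchor on chromosome 1 (170954732 to 170978223), stood at 37.7, 51.6, 50.4 and 51.7 CPM in RNA and at 46.9, 44.5, 57.1 and 53.4 CPM in RIP from DMSO cells. These ranges overlapped, and the log2 difference was 0.18 (SE 0.148, FDR 0.297). Sdhc was called higher in DMSO with DESeq2's size factors in edgeR (0.33, FDR 0.0198) and in DESeq2 (0.33, FDR 0.0108). Sdha, Sdhb and Sdhd stood at -1.98, -1.98 and -1.58 and were called lower. Fh1 stood at 13.3, 11.2, 17.6 and 12.4 CPM in the DMSO RIP libraries, a log2 of -2.22 against RNA (SE 0.165, FDR 1.1e-11).

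Mdh1 was the member with the lowest recovery. Its RNA stood at 83.7, 94.0, 115 and 113 CPM and its RIP at 17.5, 13.2, 19.6 and 17.6 CPM in DMSO, a log2 difference of -2.48 (SE 0.188, FDR 1.64e-11), or 5.57-fold. Of all genes tested, 1.19% had a lower value. Mdh2 stood at -1.93, Got2 at -1.70, Got1 at -1.54 and Glud1 at -1.31, and the carriers Slc25a1 and Slc25a11 at -1.25 and -1.02. At the other end, 62.3% of all genes lay below Idh1 and 61.8% below Suclg2, so that recovery of the highest members was moderate beside other mRNAs.

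**Figure D4:**
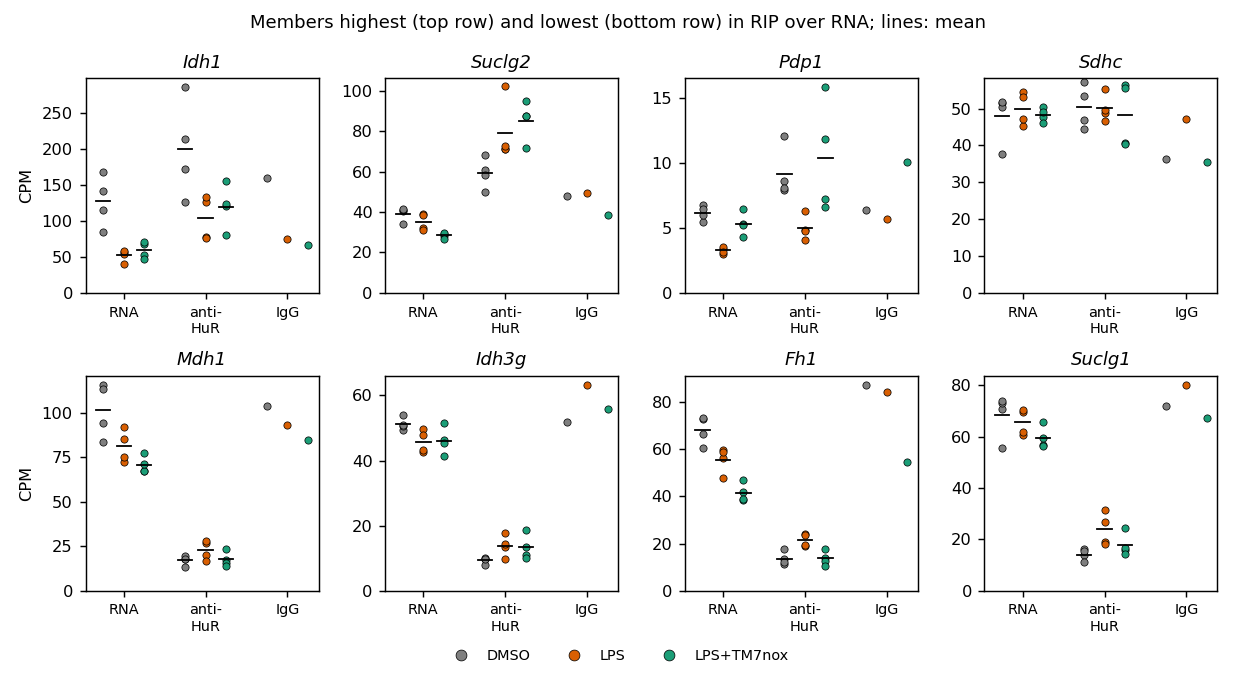
Level (CPM, linear axes from 0) in RNA, anti-HuR RIP and IgG libraries of the 4 members with the highest (top row) and the 4 with the lowest (bottom row) RIP over RNA in DMSO. Colours give the treatment, points the libraries and lines the group means, and in the bottom row every RIP point lies below the RNA and IgG points.

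Leaving out 1 library changed few of these calls, but it touched Idh1 and Pdp1. Idh1 was lost in DMSO without RNA DMSO replicate 1 (FDR 0.0628) or RIP DMSO replicate 3 (FDR 0.108), and Pdp1 without RIP DMSO replicate 3 (FDR 0.0951). In LPS, Pdp1 was lost without RNA LPS replicate 2 (FDR 0.0582) or RIP LPS replicate 3 (FDR 0.0850). Aco1 was lost in DMSO without RNA replicate 2, 3 or 4 or RIP replicate 2 or 4 of that treatment (FDR 0.0854 to 0.154) and in LPS without any 1 of 13 libraries (FDR 0.0505 to 0.121). In LPS+TM7nox Aco1 was added without RNA DMSO replicate 1 (FDR 0.0314), and Mpc1 without RNA DMSO replicate 1 or 2 or RNA LPS+TM7nox replicate 1 (FDR 0.0349 to 0.0476) and with the replicate block (FDR 0.0462). With no filter on low counts, Suclg2 stood at 0.48 (FDR 0.0610) and Pdp1 at 0.47 (FDR 0.192) in DMSO, where the median of all genes moved to 0.41. Replicates 1 and 2 alone called 28, 29 and 30 members in DMSO, LPS and LPS+TM7nox, and replicates 3 and 4 alone called 32, 29 and 31. Idh1 (0.67, FDR 0.0920) and Pdp1 (0.57, FDR 0.246) were not called in DMSO from replicates 1 and 2, nor Pdp1 in LPS from either pair (FDR 0.244 and 0.0857).

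Against IgG, over the 3 treatments together, 27 of 34 members were called lower in anti-HuR RIP and 1 higher, where 68.1% of 14973 genes were called, 33.8% higher and 34.2% lower. The members' median was -1.64 and that of all genes -0.00. The 1 called higher was Suclg2 at 0.66 (SE 0.163, FDR 0.00140), with 48.0, 49.6 and 38.8 CPM in IgG from DMSO, LPS and LPS+TM7nox cells and 50.1 to 102 CPM in the 12 RIP libraries. Idh1 stood at 0.51 (FDR 0.0587) and Sdhc at 0.31 (FDR 0.0773). With the replicate block they were called higher, at 0.78 (FDR 0.00378) and 0.38 (FDR 0.0418). They were called also with DESeq2's size factors (0.65, FDR 0.0250 and 0.43, FDR 0.0126). Idh1 was called too without RIP DMSO replicate 1, RIP LPS replicate 1, 2 or 4 or RIP LPS+TM7nox replicate 2 or 4 (FDR 0.0217 to 0.0469). Sdhc was called without RIP LPS replicate 2, RIP LPS+TM7nox replicate 2 or 4 or the LPS IgG library (FDR 0.0254 to 0.0348). Pdp1 stood at 0.09 (FDR 0.742) against IgG, unlike its difference from RNA. The call of Slc25a1, at -0.67 (FDR 0.00430), was lost without the DMSO IgG library (FDR 0.153). Replicates 3 and 4 alone called 29 members, with Idh1 and Sdhc among those higher and Slc25a1 not called. All 3 IgG libraries are of replicate 3, so replicates 1, 2 and 4 have none. In the fit without the replicate block, antibody is therefore partly confounded with replicate number.

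Within the RIP libraries, LPS raised 9 and lowered 2 of the 33 members tested (Pdk2 had too few counts), where 44.7% of 13614 genes were called, 23.5% higher and 21.2% lower. The median was 0.33 over the members and -0.00 over all genes. Dld rose most, from the 16 to 24.2 CPM in DMSO to 31.6, 34.5, 53.9 and 43.9 CPM in LPS, a log2 of 1.10 (SE 0.214, FDR 0.000612). Mdh2 (0.79), Sucla2 (0.78), Suclg1 (0.75), Slc25a1 (0.74), Idh3b (0.65), Fh1 (0.64), Idh3g (0.53) and Pdhx (0.49) rose as well. Fh1 went from 11.2 to 17.6 CPM in DMSO RIP to 19.1, 19.4, 23.9 and 23.8 CPM in LPS RIP, and Suclg1 from 11 to 16.1 CPM to 19.1, 18, 26.8 and 31.4 CPM, with no overlap for either gene. The 9 members that rose were all called lower in RIP than in IgG. In the single IgG libraries of DMSO and LPS, Dld stood at 106 and 165 CPM and Mdh2 at 285 and 341 CPM. Sucla2, Suclg1, Idh3b, Idh3g and Pdhx were also higher in the LPS IgG library. Fh1 (87.1 and 84.1 CPM) and Slc25a1 (20.7 and 19.0 CPM) were not. Whether the rise in RIP differs from that in IgG was not tested. Idh1, at 78.2, 127, 134 and 76.0 CPM in LPS RIP, fell by 0.96 (FDR 0.00674). Pdp1, at 4.86, 4.73, 6.27 and 4.06 CPM in LPS RIP, fell by 0.90 (FDR 0.00906).

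RIP levels of 2 members rose and of 5 fell, of 33, from LPS to LPS+TM7nox, where 16.2% of all genes were called, 8.64% higher and 7.61% lower. The citrate carrier Slc25a1 fell by 0.99 on the log2 scale (FDR 0.00537), Sdhd by 0.82 (FDR 0.00502), Fh1 by 0.69 (FDR 0.0150), Slc25a11 by 0.63 (FDR 0.0385) and Idh3a by 0.61 (FDR 0.0186). Fh1 stood at 14.1, 12.7, 17.5 and 10.6 CPM in LPS+TM7nox RIP, below each LPS RIP library and within reach of DMSO. Pdp1, at 7.26, 15.9, 11.9 and 6.57 CPM, rose by 1.01 (SE 0.256, FDR 0.0132), and Got1, at 20.9, 19.0, 29.6 and 19.8 CPM beside 9.98 to 18 CPM in LPS, by 0.70 (SE 0.196, FDR 0.0223). The members called from LPS to LPS+TM7nox in RNA were called in the same direction in RIP.

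With the replicate block, 18 members were called with LPS in RIP and 14 from LPS to LPS+TM7nox, of 33, where 59.3% and 33.6% of all genes were called. The block added Dlst, Got2, Mdh1, Pdhb, Sdha, Sdhb and Suclg2 as higher with LPS. For the step from LPS to LPS+TM7nox it added Glud1, Idh2, Mdh1, Mdh2, Ogdh and Suclg1 as lower and Pcx as higher. Replicates 1 and 2 alone called 1 member (Dld higher with LPS, Got1 higher from LPS to LPS+TM7nox), and replicates 3 and 4 alone called 8 and 1 (Sdhd lower). Of all genes, 24.02% and 5.59% were called in the first pair and 40.7% and 7.87% in the second. With LPS, Idh3g was lost without any 1 of 10 libraries (FDR 0.0523 to 0.187) and Pdhx without any 1 of 8 (FDR 0.0523 to 0.142). The 8 were the 4 RIP DMSO libraries, LPS replicates 1, 3 and 4 and LPS+TM7nox replicate 1, and those for Idh3g were the same with LPS+TM7nox replicates 2 and 4 added. Both were lost also with no filter on low counts (FDR 0.0925 and 0.154) and with TMM without mitochondrially encoded genes and Actb (FDR 0.0654 and 0.0526). Idh3b was lost without RIP LPS replicate 3 (FDR 0.0507) and Slc25a1 without RIP LPS replicate 4 (FDR 0.0514). Got1 was added as lower without RIP LPS replicate 4 (FDR 0.0307), and Got2, Mdh1 and Pdhb as higher without RIP LPS replicate 2 (FDR 0.0425 to 0.0481). From LPS to LPS+TM7nox, Got1 was lost without RIP LPS replicate 1 or RIP LPS+TM7nox replicate 3 (FDR 0.0595 and 0.0749) and Idh3a without RIP LPS replicate 3 or RIP LPS+TM7nox replicate 4 (FDR 0.0506 and 0.0521). Slc25a11 was lost without RIP DMSO replicate 3 or 4, RIP LPS replicate 1 or 4 or RIP LPS+TM7nox replicate 2, 3 or 4 (FDR 0.0505 to 0.11). Idh2 was added without RIP LPS replicate 2 or RIP LPS+TM7nox replicate 3 (FDR 0.0268 and 0.0212) and Pcx without RIP LPS replicate 3 (FDR 0.0499).

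Whether treatment changed the recovery itself was tested as an interaction term in the fit of RNA and RIP libraries together. None of the 34 members passed an FDR of 0.05 for LPS in edgeR, where 0.0419% of all genes did, 0.014% higher and 0.028% lower. Before adjustment 14 members had a p under 0.05 in edgeR, all higher, beside 1041 genes (7.27%) of all those tested. DESeq2 called 3 members higher: Fh1 (FDR 0.00327), Pdhx (FDR 0.0232) and Sdhd (FDR 0.0429), where it called 0.468% of all genes. Fh1 had the largest value, 0.85 (SE 0.224, FDR 0.264), and RIP minus RNA values of -2.18, -2.56, -2.05 and -2.56 in DMSO, -1.32, -1.53, -1.31 and -1.31 in LPS and -1.45, -1.88, -1.25 and -1.87 in LPS+TM7nox. The DMSO values all lay below the others. Fh1 was called with the replicate block (0.85, FDR 0.0422; 0.349% of all genes) and without RIP DMSO replicate 3 (FDR 0.0429). The members' median change was 0.40 with LPS and 0.02 over all genes, and replicates 1 and 2 gave 0.25 where replicates 3 and 4 gave 0.60.

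TM7nox, added to LPS, changed the recovery of 0 of 34 members by edgeR, where 0.00699% of all genes were called, all of them higher. DESeq2 called 0 members too, and 0.021% of all genes. Before adjustment 2 members had a p under 0.05 in edgeR, both lower (Sdhd at -0.47 and Slc25a1 at -0.65), beside 771 genes (5.39%) of all tested. The members' median was -0.12. Suclg2 had the RIP minus RNA values 0.83, 0.31, 0.73 and 0.49 in DMSO, 1.14, 1.20, 1.39 and 0.90 in LPS and 1.33, 1.58, 1.67 and 1.70 in LPS+TM7nox, and the treatments overlapped only between LPS and LPS+TM7nox. Its change was 0.47 with LPS (SE 0.202, FDR 0.631) and 0.39 with TM7nox (SE 0.202, FDR 0.871), neither of them called.

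The T content of the 3′ UTR did not order the members. The members had a median of 30.0% T in 1158 bases, and 10991 coding genes had a median of 29.2% T in 1354 bases. Over those genes the T content and RIP over RNA in DMSO had a Spearman rho of 0.27 and a Pearson r of 0.26, and over the 34 members the values were -0.21 and 0.10. These are descriptions across genes, which share libraries and base composition and are not replicates. Genes called higher in RIP over RNA had a median of 31.1% T and 2134 bases, and genes called lower 27.9% and 855 bases. Suclg2 and Sucla2, called higher and lower in RIP over RNA, had 34.5% T in 2040 bases and 34.5% T in 1447 bases. Pdp1 had 36.2% T, above 94.7% of all genes, while Idh1 had 29.8% and Sdhc 27.4%. Mdh1, the lowest in recovery, had 32.9%.

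The letters ATTTA, the core of an AU-rich element, were found in the first 300 bases of the 3′ UTR in 14 of the 29 members with that length (48.3%) and in 32.8% of 9545 genes. The run TTTTT was found in 8 of the 29 (27.6%) and in 45.9% of genes. Only the strand of the gene was searched, since the mRNA is read from it, and the motifs can overlap at their T bases. Of the members called higher in RIP over RNA, Suclg2 held ATTTA, Idh1 held TTTTT and Pdp1 held neither in that span, and Mdh1 and Fh1, among the lowest, held both. A match is a description of letters and no match says nothing of binding elsewhere in the mRNA.

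**Figure D5:**
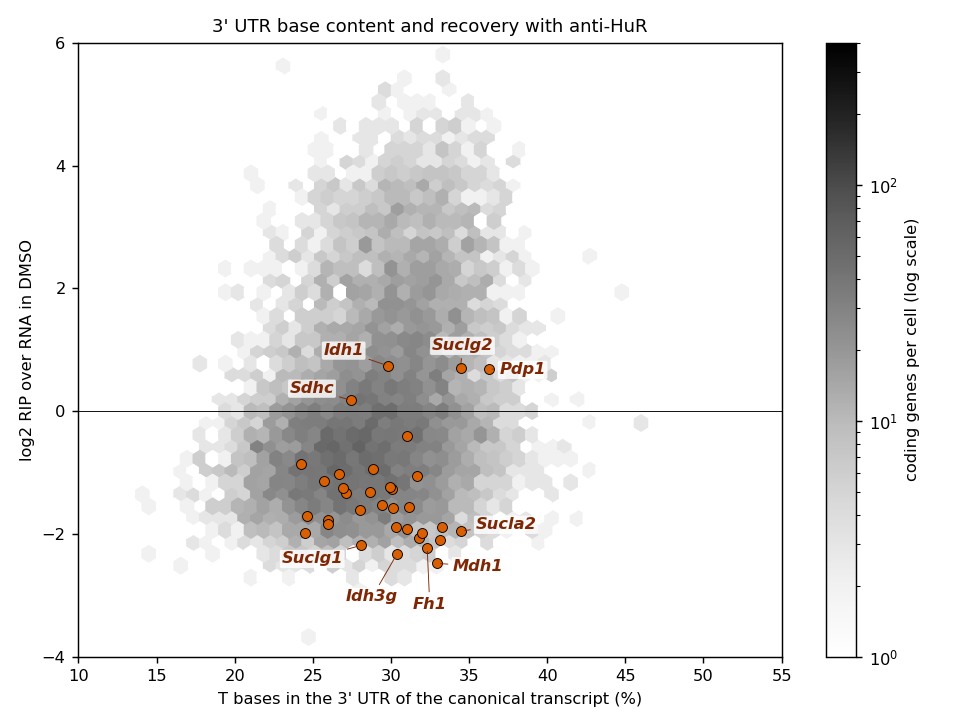
T content (%) of the 3′ UTR against log2 RIP over RNA in DMSO, with coding genes as grey cells shaded by their number on a log scale and the 34 members as orange points. Suclg2 and Sucla2 have nearly the same T content (34.5%) and lie at 0.70 and -1.95.

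Other genes of the pathway, on a list of 37 that adjoins the 34, moved in both directions. In RNA 30 of them could be tested, and 3 rose and 8 fell with LPS, a share below the 42% of all genes called. Acod1, which makes itaconate from the cycle intermediate cis-aconitate, rose from 9.03 ± 3.42 to 2788 ± 462 CPM (SD, n = 4), a log2 change of 8.24 (FDR 1.36e-09). The glutamate carrier Slc25a22 (1.60) and the aspartate-glutamate carrier Slc25a12 (0.60) rose too. Those that fell most were the pyruvate dehydrogenase kinase Pdk1 (-1.74), the dicarboxylate carrier Slc25a10 (-1.63), the lipoyl transferase Lipt2 (-1.51) and Fahd1 (-1.33). Lipt2 was lost without RNA DMSO replicate 1 or 2 or LPS replicate 2, 3 or 4 (FDR 0.0557 to 0.0925). Fahd1 was lost without DMSO replicate 2, 3 or 4, LPS replicate 1, 3 or 4 or LPS+TM7nox replicate 2 (FDR 0.0508 to 0.109).

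Of those 30 genes, 3 rose and 4 fell from LPS to LPS+TM7nox, where 13.8% of all genes were called. The mitochondrial phosphoenolpyruvate carboxykinase Pck2 (1.83), malic enzyme Me1 (1.44) and the alanine aminotransferase Gpt2 (1.44) rose. Slc16a1, a monocarboxylate transporter (-0.81), Slc25a22 (-0.74), ATP-citrate lyase Acly (-0.50) and Me2 (-0.49) fell. Acly was lost without LPS replicate 3 or 4 or LPS+TM7nox replicate 1 or 2 (FDR 0.0596 to 0.0771). Against DMSO, LPS+TM7nox had 6 of the 30 higher and 13 lower, where 47.3% of all genes were called. Acod1 (7.74), Pck2 (1.28), Me1 (1.19) and Gpt2 (1.06) led the first and Lipt2 (-2.43), Pdk1 (-2.09), Slc25a10 (-1.67) and Fahd1 (-1.59) the second. In RIP over RNA in DMSO, 8 of 31 were higher and 13 lower, with a median of -0.38, and this share is near the 70.4% of all genes called. Gpt2 (3.43) and Slc16a1 (2.55) stood well above Idh1, the highest of the 34.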

How the data were processed

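Total RNA, anti-HuR RIP and IgG libraries were made with a stranded SMART-Seq kit, per the labels' protocols. The authors deposited raw read counts per gene for 27 libraries. FastQC 0.11.9, STAR, HTSeq, DESeq2 and the build GRCm39 are named in the submitters' processing notes, and the sources used here do not give the annotation release or strand setting.

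From these counts, edgeR 4.0.16 (R 4.3.3) fitted quasi-likelihood models with TMM scaling and a filter on low counts (filterByExpr, minimum count 10). The 4 fits held the 12 RNA libraries, the 12 RIP libraries, both together (24), and RIP with IgG (15, with treatment as a term). They gave 11 comparisons, each adjusted over all genes tested (Benjamini-Hochberg, FDR under 0.05). CPM were put on 1 TMM scale over the 27 libraries. Positions and 3′ UTRs came from GENCODE M39 on GRCm39, in which 93.2% of gene IDs were found. The fits were tested on simulated data.

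Same-numbered libraries deviated together in all 32 library pairs checked, over 8 pairs of groups (correlations of 0.116 to 0.392 over 18480 genes), so the numbers were taken to pair them and a replicate block was fitted as an alternative. The main fits, which give the calls wherever no alternative is named, had no term for replicate and so left this pairing out. The other alternatives were DESeq2's size factors in edgeR, DESeq2 1.42.0, no filter, TMM without mitochondrially encoded genes and Actb, replicates 1 and 2 or 3 and 4 alone, and leaving out each library.

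The members and lists were chosen with earlier results of these data known. Values per library are given for members called in an interaction, for the 4 largest called changes in each direction per RNA comparison, and for the 4 highest and 4 lowest in RIP over RNA in DMSO. Sucla2 was added after its values were seen. For the list of 37 other genes, the 4 largest called changes in each direction per RNA comparison are named, and the genes named for RIP over RNA were chosen after their values were seen.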

Additional observations from a re-analysis of the deposited data

Results flagged for a closer look

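Single libraries stood apart from the other 3 of their group in 6 of 78 groups of 4 libraries, counted over 13 members in 6 groups each. The gap to the nearest library was over 0.829 of the group's range, Dixon's limit for 4 values, which chance passes in about 1 in 20 groups. RNA DMSO replicate 1, the shallowest library, was low for Suclg1 (55.75 CPM, the others 70.8 to 73.8), Suclg2 (34.13 CPM, the others 40.3 to 41.4) and Sdhc (37.73 CPM, the others 50.4 to 51.7). In RIP from DMSO cells, Pdp1 was high in replicate 3 (12.11 CPM, the others 7.89 to 8.6) and Idh3g low in replicate 2 (8.006 CPM, the others 9.85 to 9.93). In RIP from LPS cells, Suclg2 was high in replicate 3 (102.4 CPM, the others 71.0 to 72.6).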

How the results depend on the processing

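Of the 515 results for single genes, none that was called, as reported or under an alternative, had the opposite sign in the other fit; signs of values called in neither were not counted. In these results the replicate block took no call away and added 43, of which 33 were of the 34 members and the others of the wider list; it changed no other call. With LPS in RNA, 10 members were called, 4 with no filter (more genes tested), 1 from replicates 1 and 2 alone, and 6 to 11 without 1 library each. From LPS to LPS+TM7nox in RNA, 5 were called, 8 with DESeq2, 1 with no filter, 10 with the replicate block, 0 and 12 from replicates 1 and 2 or 3 and 4 alone, and 1 to 6 without 1 library. For LPS+TM7nox against DMSO in RNA, 13 were called, 20 with the block, 1 and 20 from the replicate pairs, and 11 to 19 without 1 library. In RIP, 11 were called with LPS, 18 with the block, 1 from replicates 1 and 2, and 8 to 14 without 1 library. From LPS to LPS+TM7nox in RIP, 7 were called, 14 with the block, 1 and 1 from the replicate pairs, and 5 to 8 without 1 library. For the change of recovery by LPS, 0 were called, 3 with DESeq2, 1 with the block, and 0 to 1 without 1 library. The cause was not tested. Calls of RIP over RNA (28 to 32 in DMSO, 29 to 31 in LPS, 30 to 32 in LPS+TM7nox) and against IgG (27 to 30) moved little. DESeq2's size factors moved the median RIP over RNA of all genes in DMSO from 0.04 to 0.19, and that of the members from -1.57 to -1.43. The 2728534 counts of RNA DMSO replicate 1 limit low genes such as Pdk2.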
